A study of Mus musculus with 43 samples.

Results

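The comparison described here is hyperoxia against normoxia in Ly6Clo mononuclear cells of the newborn mouse lung, over all genes that these cells express. Its members are the 10 libraries labelled as Ly6Clo, of 43 libraries in the whole series: 5 from hyperoxic and 5 from normoxic pups. All pups were C57BL/6 mice without a stated genetic change, pooled from litters found within 6 h of birth and allotted at random to an inspired oxygen fraction of 0.9 (hyperoxia) or to normoxia, and killed after 1.5 days. Perfused whole lungs were digested, and Ly6Clo cells were sorted as low in Ly6C and high in CD11c, the protein made from Itgax. The other sorted populations were dendritic cells, alveolar macrophages and Ly6Chi cells, with 11 libraries each.

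Each library carries a litter label. In normoxia, replicates 1 and 2 belonged to litter 93, replicates 3 and 4 to litter 100 and replicate 5 to litter 108. In hyperoxia, replicates 1 and 2 belonged to litter 93, replicate 3 to litter 100 and replicates 4 and 5 to litter 108. Litter was therefore a term of the fit, and litter 100 rests on 1 hyperoxic library. Replicate numbers follow the order of deposit and pair nothing. The labels do not tie a library to a single pup, so p-values measure the spread between these libraries. They give neither the number of cells sorted nor the sex of the pups.

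Ly6Clo mononuclear cells of the lung comprise patrolling or non-classical monocytes and macrophages that derive from monocytes or were seeded before birth. They take up debris, present antigen and make cytokines and growth factors. High oxygen raises reactive oxygen species in the lung. Oxidants release the transcription factor NRF2 from its inhibitor KEAP1, and NRF2 drives genes of the thioredoxin and glutathione systems, while DNA damage stabilises p53, which drives the cell cycle inhibitor p21 (Cdkn1a). Interferons act through STAT proteins and inflammatory cytokines through NF-kB. The series is titled for an imbalance of Ly6Chi and Ly6Clo cells in hyperoxic lung injury and for IFN-gamma, so these programmes were described in turn.

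Total counts were 1422341 ± 240952 (SD, n = 5) in normoxia, from 1177993 to 1746742, and 1397236 ± 535015 (SD, n = 5) in hyperoxia, from 647844 to 1963284. The difference of the means had an exact permutation p of 0.5, two-sided, with labels exchanged within litter in 54 arrangements. Genes with at least 1 count numbered 15078 ± 537 in normoxia and 14572 ± 748 in hyperoxia (exact permutation p = 0.185). Hyperoxia replicate 3, the hyperoxic library of litter 100, had the lowest total, 647844 counts, and the fewest genes, 13532, and it stood apart in many genes named below. Where leaving it out moved the log2 fold change printed for a gene by over 1.5 times, the value without it is given too. Levels are counts per 1000000 after trimmed-mean (TMM) scaling over the 10 libraries (CPM), and fold changes are log2 values of hyperoxia over normoxia with their standard error.

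In normoxic Ly6Clo libraries, Itgax stood at 170.2 ± 18.5 CPM (SD, n = 5) and Ly6c2, which encodes Ly6C, at 19.15 ± 6.23 CPM. Siglecf, the alveolar macrophage gate, stood at 19.83 ± 10.07 CPM and H2-Ab1, an MHC class II chain, at 139.7 ± 43.8 CPM. Levels of these genes were not compared with the other populations, so the label was not checked against them. The summed level of the alveolar macrophage markers, 23 of 24 listed being in the table, ran from 6106 to 8621 CPM in normoxic Ly6Clo libraries. This sum was not compared with those of the other populations.

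With edgeR's quasi-likelihood test, 0 of 10188 genes differed between hyperoxic and normoxic Ly6Clo libraries at a Benjamini-Hochberg adjusted p under 0.05 (0.00% of genes tested higher and 0.00% lower). Before adjustment, 540 genes (5.30%) had a p under 0.05, of which 302 (2.96%) were higher and 238 (2.34%) lower in hyperoxia. Whatever their p, 4875 genes (47.9%) had a log2 fold change above 0 and 5313 (52.1%) below. The 5 hyperoxic values did not overlap the 5 normoxic ones for 69 genes (0.677%), 30 of them higher (0.294%) and 39 lower (0.383%). DESeq2 called 1 gene and limma voom 0, the latter with 457 genes at an unadjusted p under 0.05. Without the filter on low counts edgeR called 98 genes higher and 75 lower, of which 119 were genes that the filter keeps. The genes below are therefore described by their values and are not called changed.

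**Figure D1:**
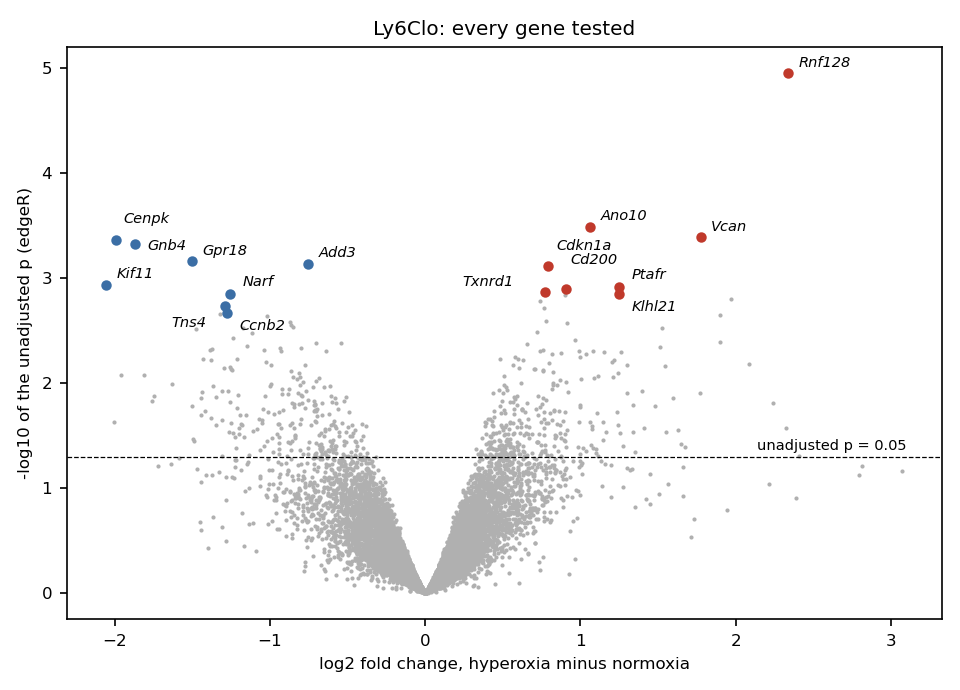
Each point is 1 of the 10188 genes tested in Ly6Clo cells: the log2 fold change of hyperoxia over normoxia (x axis) against minus log10 of the unadjusted edgeR p (y axis). The 8 leading genes in each direction are in colour, and Rnf128 lies farthest up, at a log2 fold change of 2.34.

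The gene with the smallest p was Rnf128, which encodes GRAIL, a membrane-bound E3 ubiquitin ligase known for restraining T cell cytokine production. The 5 normoxic libraries read 9.26, 7.28, 12.8, 10.2 and 10.4 CPM, and the 5 hyperoxic ones 39.5, 28.1, 50.8, 45.3 and 129 CPM, in replicate order. Every hyperoxic library lay above every normoxic one, and hyperoxia replicate 5 stood far above the other hyperoxic libraries. The means were 9.99 ± 1.98 and 58.5 ± 40.1 CPM (SD, n = 5 each), a log2 fold change of 2.34 ± 0.36 (95% interval 1.57 to 3.098), or 5.05-fold. The unadjusted edgeR p was 1.1e-05 and the adjusted p 0.113. Within litters the difference of mean log2 CPM was 1.93 in litter 93, 2.09 in litter 100 and 2.79 in litter 108.

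Rnf128 was the gene that DESeq2 called (adjusted p = 1.4e-05), and edgeR called it in 3 other settings: without the filter on low counts, in 1 fit of all 43 libraries, and without hyperoxia replicate 4 (adjusted p = 0.0463). Over all settings that tested it, the log2 fold change ran from 2.07 to 2.58 and the adjusted p from 1.5e-08 to 0.9999. In alveolar macrophages its log2 fold change was 1.97 ± 0.26 (edgeR adjusted p = 0.00198). It was below the count filter in the fits of dendritic cells and of Ly6Chi cells.

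The 250 bases before the start of Rnf128 are shown because its level had the smallest p, for comparison with the NRF2 gene further below. The sequence is from RefSeq, build GRCm38.p6, plus strand, chrX:139610370-139610619, and holds no antioxidant response element of the form TGACNNNGC on either strand, so no letters are in capitals.
Rnf128: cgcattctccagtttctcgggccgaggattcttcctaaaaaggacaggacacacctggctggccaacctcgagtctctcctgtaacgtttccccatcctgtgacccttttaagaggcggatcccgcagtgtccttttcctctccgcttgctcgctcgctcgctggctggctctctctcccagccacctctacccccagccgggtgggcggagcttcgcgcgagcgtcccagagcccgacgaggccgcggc

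The other 15 genes that led the ranking shared an edgeR adjusted p of 0.860. Among those higher in hyperoxia, Ano10, of the anoctamin family of membrane proteins, read 22.2, 21.8, 22.96, 27.7 and 34.8 CPM in normoxia and 34.7, 37.2, 71.1, 75.2 and 82.1 CPM in hyperoxia. The lowest hyperoxic library lay within the normoxic range, and the log2 fold change was 1.06 ± 0.23. Vcan, the matrix proteoglycan versican, read 8.64, 3.92, 12.8, 10.9 and 2.61 CPM in normoxia and 19.4, 13.2, 38.9, 18.9 and 18.6 CPM in hyperoxia. These groups did not overlap, hyperoxia replicate 3 was the highest, and the log2 fold change was 1.77 ± 0.39. Ptafr, the receptor of platelet-activating factor, had a median of 44.5 CPM in normoxia and 64.5 in hyperoxia, with hyperoxia replicate 3 alone at 257 CPM. Its log2 fold change was 1.25 ± 0.31, and 0.75 without that library.

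Cd200, whose protein engages an inhibitory receptor on myeloid cells, ran from 88.2 to 149 CPM in normoxia and from 147 to 327 CPM in hyperoxia, a log2 fold change of 0.91 ± 0.23 (0.57 without hyperoxia replicate 3). Klhl21, an adaptor of a cullin-3 ubiquitin ligase, ran from 9.88 to 23.8 CPM in normoxia and from 22.3 to 40.5 CPM in hyperoxia, a log2 fold change of 1.25 ± 0.32. In both genes the ranges met at 1 library only. The leading genes Cdkn1a and Txnrd1 are given with the p53 and NRF2 lists.

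Among genes lower in hyperoxia, Add3 had no overlap between groups. This gene encodes the adducin gamma subunit, which ties spectrin to actin at the membrane. It read 176, 157, 162, 198 and 166 CPM in normoxia and 110, 117, 82.9, 114 and 83.2 CPM in hyperoxia, a log2 fold change of -0.75 ± 0.18. Gnb4, a G protein beta subunit, read 21.6, 16.8, 9.35, 10.2 and 24.3 CPM in normoxia and 8.07, 6.62, 3.38, 4.98 and 2.19 CPM in hyperoxia, again without overlap (log2 fold change -1.87 ± 0.42). Gpr18, a G protein-coupled receptor of leukocytes, read 30.2, 19.0, 45.9, 46.6 and 19.1 CPM in normoxia and 7.26, 16.5, 13.5, 5.48 and 3.83 CPM in hyperoxia (log2 fold change -1.50 ± 0.35). Those groups did not overlap either. Narf, which encodes a protein that binds prelamin A, had a mean of 50.2 ± 10.3 CPM in normoxia and 22.3 ± 11.3 in hyperoxia, where replicate 5 lay apart at 42.1 CPM. Tns4, a tensin of cell-matrix contacts, had means of 33.8 ± 11.4 and 14.2 ± 10.6 CPM.

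**Figure D2:**
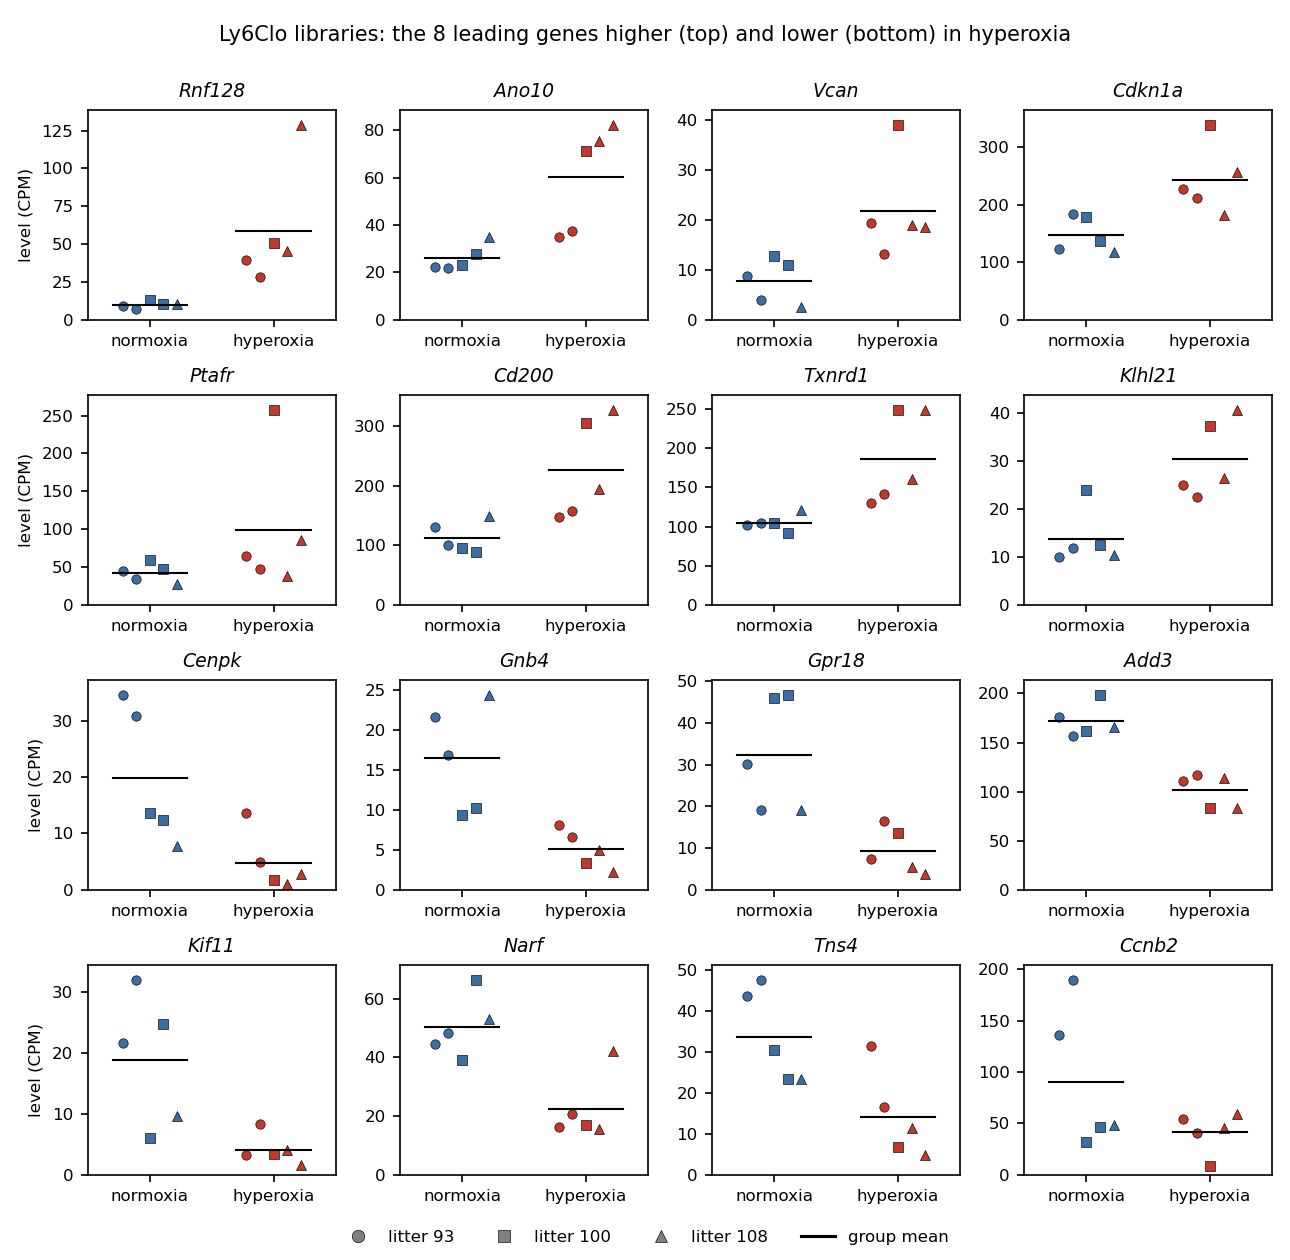
Levels (CPM, linear axes from 0) of the 16 leading genes in each of the 10 Ly6Clo libraries, 5 per group. Points are libraries, symbols give the litter and lines the group means; the groups do not overlap for Rnf128, Vcan, Txnrd1, Gnb4, Gpr18 and Add3.

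Most genes of cell division had lower levels in hyperoxia, none of them called, and the 2 normoxic libraries of litter 93 held the highest sums. Of 30 listed genes of mitosis and G2/M phase, 26 were tested, 25 of them lower and 1 higher, and 12 lower members had an unadjusted p under 0.05, against 2.34% of all genes. Their median log2 fold change was -1.09, against -0.01 over all genes tested, and none was called. Of 30 listed genes of DNA replication and S phase, 24 were tested, 23 of them lower, 7 with an unadjusted p under 0.05, and the median was -0.51. These are bulk RNA levels, in which fewer dividing cells and less RNA per cell cannot be told apart.

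Kif11, the kinesin motor that pushes spindle poles apart, read 21.6, 31.9, 5.95, 24.8 and 9.56 CPM in normoxia and 3.23, 8.27, 3.38, 3.99 and 1.64 CPM in hyperoxia. Normoxia replicate 3 lay within the hyperoxic range, and the log2 fold change was -2.05 ± 0.51. Ccnb2, a mitotic cyclin, read 136, 189, 31.5, 46.6 and 48.7 CPM in normoxia and 54.0, 40.5, 8.46, 45.8 and 59.1 CPM in hyperoxia. Here the height of the normoxic group lay in the 2 libraries of litter 93, and in litter 108 the hyperoxic mean was not below normoxia (log2 fold change -1.28 ± 0.34 over all). Cenpk, a kinetochore protein outside the list, read 34.6, 30.8, 13.6, 12.4 and 7.82 CPM in normoxia and 13.7, 4.96, 1.69, 0.997 and 2.74 CPM in hyperoxia (log2 fold change -1.995 ± 0.44). Cdca3, a trigger of mitotic entry, and Hmmr, a spindle-associated receptor of hyaluronan, had log2 fold changes of -1.17 ± 0.33 and -1.48 ± 0.42.

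S phase genes differed less. Mcm4, a subunit of the replicative helicase, had a mean of 57.3 ± 11.8 CPM in normoxia and 38.3 ± 10.3 in hyperoxia (log2 fold change -0.66 ± 0.24). Clspn, the checkpoint mediator claspin, had 15.4 ± 7.42 and 6.33 ± 6.17 CPM, and Rrm1, the large subunit of ribonucleotide reductase, 80.5 ± 29.2 and 53.7 ± 16.4 CPM. The groups overlapped for each of these 3 genes.

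Summed over the mitosis list, normoxic libraries held 1348, 2263, 425, 915 and 612 CPM and hyperoxic ones 839, 536, 338, 677 and 526 CPM. The 2 normoxic libraries of litter 93 were the highest of all 10. Without litter 93, where 372 of 10158 genes tested were lower at an unadjusted p under 0.05, 23 members were tested. Of these, 19 were lower and 0 had such a p, and the median moved to -0.56. The median was -1.01 without hyperoxia replicate 3, with 25 of 26 lower.

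The promoter of Kif11 is shown as that of the leading mitotic gene. It was searched on both strands for TTTGAA, the core of the cell cycle genes homology region, which lies in promoters of genes silenced outside G2 and M phase. Of 23 tested members with a promoter in the RefSeq table, 7 held these letters in the 250 bases before their start (30.4%), against 16.3% of all 27025 promoters and 10.3% of those of the genes tested. The sequence is from RefSeq, build GRCm38.p6, plus strand, chr19:37376132-37376381, with the match, on the opposite strand, in capitals.
Kif11: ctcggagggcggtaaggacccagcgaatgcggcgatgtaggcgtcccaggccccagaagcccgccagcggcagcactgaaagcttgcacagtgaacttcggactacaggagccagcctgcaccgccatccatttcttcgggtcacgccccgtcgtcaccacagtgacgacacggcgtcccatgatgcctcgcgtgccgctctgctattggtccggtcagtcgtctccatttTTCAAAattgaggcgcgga

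Most antioxidant genes of the NRF2 pathway had higher levels in hyperoxia, none of them called. Of 26 listed, 22 were tested, 19 of them higher and 3 lower, and 10 higher members had an unadjusted p under 0.05, against 2.96% of all genes. The median log2 fold change was 0.35. The groups did not overlap for 3 members, Txnrd1, Esd and Blvrb, against 0.294% of all genes higher without overlap. The median stood at 0.35 without hyperoxia replicate 3, with 20 of 22 higher and 7 at an unadjusted p under 0.05. In that setting 128 of 10455 genes tested were higher at that p.

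Txnrd1, the cytosolic thioredoxin reductase, read 102, 104, 105, 91.8 and 121 CPM in normoxia and 130, 142, 249, 161 and 249 CPM in hyperoxia. Hyperoxia replicates 3 and 5 were the highest, and the log2 fold change was 0.77 ± 0.20. Esd, the hydrolase of S-formylglutathione, read 201, 230, 179, 212 and 210 CPM in normoxia and 269, 294, 499, 253 and 398 CPM in hyperoxia (log2 fold change 0.74 ± 0.19). Blvrb, a biliverdin reductase of haem breakdown, read 214, 226, 201, 145 and 156 CPM in normoxia and 248, 262, 467, 261 and 320 CPM in hyperoxia (log2 fold change 0.77 ± 0.20). Replicate 3 was again the highest for both, and without it the log2 fold changes were 0.48 and 0.48. Srxn1, the sulfiredoxin that repairs over-oxidised peroxiredoxins, had 39.5 ± 8.45 CPM in normoxia and 72.0 ± 27.2 in hyperoxia, with overlapping groups (log2 fold change 0.74 ± 0.27). The summed level of the list was 5431, 5417, 5710, 5666 and 6505 CPM in normoxia and 6740, 7153, 9163, 6214 and 7906 CPM in hyperoxia, where replicate 4 lay within the normoxic range.

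The promoter of Gclm, the regulatory subunit of glutamate-cysteine ligase, the first enzyme of glutathione synthesis, is shown as one with a match to the antioxidant response element, the site that NRF2 binds. Gclm had a log2 fold change of 0.49 ± 0.18 in Ly6Clo cells. The letters TGACNNNGC were found on either strand in 4 of 17 tested NRF2 genes with a promoter in the table (23.5%), against 10.2% of all 27025 promoters and 12.4% of those of the genes tested. None of the 4 belongs to Txnrd1, Esd, Blvrb or Srxn1. The sequence is from RefSeq, build GRCm38.p6, plus strand, chr3:122245307-122245556, with the match, on the opposite strand, in capitals.
Gclm: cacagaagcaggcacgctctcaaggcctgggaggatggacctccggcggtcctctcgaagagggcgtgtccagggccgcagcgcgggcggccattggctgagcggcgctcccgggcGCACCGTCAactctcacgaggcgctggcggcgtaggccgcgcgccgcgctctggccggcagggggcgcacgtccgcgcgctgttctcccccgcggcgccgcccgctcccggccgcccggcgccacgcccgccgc

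Among 32 listed p53 targets, 27 were tested, 15 of them higher (47.9% of all genes were) and 12 lower. Of the higher members 6 had an unadjusted p under 0.05, against 2.96% of all genes, and the median was 0.17. Cdkn1a, the gene of the cell cycle inhibitor p21, read 122, 184, 179, 136 and 117 CPM in normoxia and 227, 211, 338, 181 and 257 CPM in hyperoxia. The lowest hyperoxic library lay just within the normoxic range, and the log2 fold change was 0.79 ± 0.19. Mdm2, the ubiquitin ligase that degrades p53, had 114 ± 19.4 CPM in normoxia and 175 ± 38.9 in hyperoxia (log2 fold change 0.56 ± 0.18). Zmat3, an RNA-binding p53 target, had 17.6 ± 2.995 and 31.0 ± 12.5 CPM, and the kinase gene Plk3 65.4 ± 12.8 and 113 ± 38.5 CPM. The log2 fold change of Zmat3 was 0.78 ± 0.31, and 0.51 without hyperoxia replicate 3.

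The summed level of the p53 list did not overlap between groups: 1921, 1993, 2028, 1903 and 1903 CPM in normoxia against 2351, 2106, 2137, 2270 and 2317 CPM in hyperoxia. The list did not move as 1 block, since 12 of its 27 tested members were lower. On the mean log2 CPM of its tested members the groups overlapped, at 5.15 to 5.53 in normoxia and 5.19 to 5.67 in hyperoxia. For the NRF2 list these means did not overlap (7.47 to 7.58 against 7.82 to 8.17), whereas the sums did. Whether a list separated therefore depended on the measure.

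**Figure D3:**
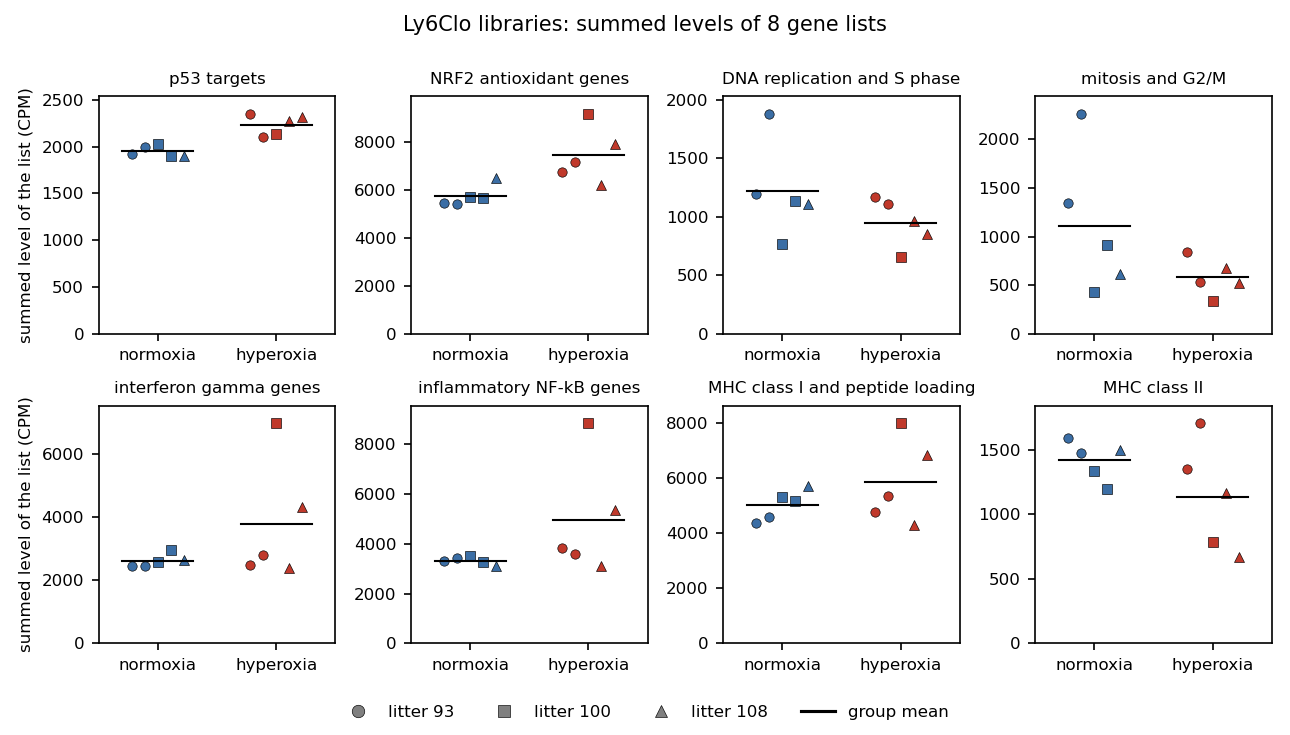
Summed levels (CPM, linear axes from 0) of 8 gene lists in each of the 10 Ly6Clo libraries, 5 per group, with symbols for the litter and lines for the group means. The p53 sums do not overlap between groups, though the mean log2 CPM of the tested p53 members, not drawn, does. Litter 93 holds the highest mitosis sums, and hyperoxia replicate 3 of litter 100 holds the highest sums of the interferon gamma, NF-kB and MHC class I lists.

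Interferon gamma genes gave the highest median among the lists with at least 6 tested members, 0.77, and this value rested on 1 library. Of 28 listed genes 17 were tested, 15 of them higher (47.9% of all genes were). Of these, 5 had an unadjusted p under 0.05, against 2.96% of all genes. Their summed level was 2461, 2458, 2594, 2958 and 2649 CPM in normoxia and 2496, 2809, 6978, 2387 and 4338 CPM in hyperoxia. Hyperoxia replicates 3 and 5 lay above all other libraries, and the other 3 hyperoxic libraries lay within or below the normoxic range. Without replicate 3 the median was 0.10, with 10 members higher and 7 lower, and without litter 100 it was 0.11.

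Cd274, which encodes the checkpoint ligand PD-L1, read 212, 170, 208, 279 and 241 CPM in normoxia and 270, 268, 484, 267 and 564 CPM in hyperoxia (log2 fold change 0.72 ± 0.20). Irf1, a transcription factor induced by interferon gamma, read 115, 148, 115, 181 and 159 CPM in normoxia and 141, 192, 457, 148 and 356 CPM in hyperoxia (log2 fold change 0.81 ± 0.28). In both genes the 2 highest libraries were hyperoxia replicates 3 and 5, and without replicate 3 the value of Irf1 was 0.47. The receptor chains Ifngr1 and Ifngr2 had log2 fold changes of -0.34 ± 0.22 and 0.03 ± 0.15, and of -0.11 and 0.10 without that library.

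The type I interferon list showed the same dependence. Of 28 listed genes 22 were tested, 15 of them higher (47.9% of all genes were), with a median of 0.34. Without hyperoxia replicate 3 the median was -0.18, with 7 members higher and 15 lower. Ifit2, an antiviral tetratricopeptide protein, read 9.26, 22.96, 11.1, 20.4 and 0.869 CPM in normoxia and 12.9, 31.4, 164, 13.9 and 32.8 CPM in hyperoxia. Ifit1, of the same family, reached 105 CPM in hyperoxia replicate 3 and at most 21.3 CPM in any other Ly6Clo library. Bst2, the virion tether tetherin, and Zbp1, a sensor of unusual nucleic acids, had log2 fold changes of 0.48 ± 0.23 and 0.90 ± 0.44. Without hyperoxia replicate 3 the values were 1.31 for Ifit2, against 2.09, 0.67 for Ifit1, against 1.66, 0.19 for Bst2 and 0.52 for Zbp1.

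The promoter of Ifit1 is shown because interferon genes set hyperoxia replicate 3 apart. The interferon-stimulated response element, the site of the STAT and IRF complex, was searched as a pair of GAAA runs with any 2 bases between them, on both strands. It was present in 8 of 15 tested type I interferon genes with a promoter in the table (53.3%), against 3.04% of all 27025 promoters and 2.81% of those of the genes tested. The sequence is from RefSeq, build GRCm38.p6, plus strand, chr19:34640639-34640888, with 2 matches, both on the opposite strand, in capitals.
Ifit1: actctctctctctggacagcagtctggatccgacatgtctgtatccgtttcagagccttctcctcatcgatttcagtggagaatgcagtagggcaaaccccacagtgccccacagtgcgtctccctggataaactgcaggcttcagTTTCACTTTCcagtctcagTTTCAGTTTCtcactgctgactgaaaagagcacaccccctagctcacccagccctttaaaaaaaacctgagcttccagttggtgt

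Antigen presentation genes leaned in opposite directions by class, none of them called. Of 20 listed MHC class I and peptide-loading genes, 15 were tested, 13 of them higher (47.9% of all genes were), with a median of 0.29. Of the higher members 2 had an unadjusted p under 0.05, against 2.96% of all genes. The class I chain genes H2-K1 and H2-D1 had unadjusted edgeR p-values of 0.293 and 0.959. Tap1 and Tap2, the peptide transporter subunits, reached 357 and 108 CPM in hyperoxia replicate 3 and 220 and 65.1 CPM in replicate 5, against at most 59.5 and 35.7 CPM in normoxia. The other 3 hyperoxic libraries lay within the normoxic range for Tap2 and at 31.5 to 50.5 CPM for Tap1. Tapbp, the tapasin that loads peptide, reached 590.5 and 453 CPM in the same 2 libraries, against 115 to 151 CPM in the other hyperoxic ones, and its log2 fold change was 1.07 ± 0.41. Without hyperoxia replicate 3 it was 0.52, that of Tap1 was 0.61 against 1.33, and the median of the list was 0.16.

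The MHC class II genes went the other way. Of 10 listed, 8 were tested and all 8 were lower (52.1% of all genes were), with a median of -0.52. Only 1 had an unadjusted p under 0.05, against 2.34% of all genes lower at that p. Cd74, the invariant chain, read 575, 513, 350, 370 and 429 CPM in normoxia and 420, 598, 152, 340 and 166 CPM in hyperoxia. The lowest libraries were again hyperoxia replicates 3 and 5, and the log2 fold change was -0.58 ± 0.23. Leaving out hyperoxia replicate 3, it was -0.36 and the median of the list -0.32. H2-Ab1 and H2-Eb1, chains of the class II molecules, had log2 fold changes of -0.50 ± 0.25 and -0.66 ± 0.38. B cells express class II genes too, and their markers moved with this list: 5 of 6 tested of 12 listed were lower, and their summed level ran from 293 to 628 CPM in normoxia and from 74.4 to 473 CPM in hyperoxia, lowest in replicates 3 and 5. Their part in the result was not tested.

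Most inflammatory NF-kB genes had higher levels in hyperoxia, none of them called, and the median depended on hyperoxia replicate 3. Of 29 listed, 23 were tested, 20 of them higher (47.9% of all genes were) and 3 lower, with a median of 0.59. Of the higher members 8 had an unadjusted p under 0.05, against 2.96% of all genes. Tnfaip2, a gene induced by tumour necrosis factor, read 303, 281, 296, 329 and 311 CPM in normoxia and 336, 388, 983, 356 and 544 CPM in hyperoxia. These groups did not overlap, and replicates 3 and 5 were again the highest (log2 fold change 0.78 ± 0.21). Relb, an NF-kB subunit of the non-canonical pathway, ran from 13.04 to 31.3 CPM in normoxia and from 14.5 to 90.8 CPM in hyperoxia, with a log2 fold change of 1.21 ± 0.38. Il1a, which encodes interleukin-1 alpha, and Il1rn, which encodes the interleukin-1 receptor antagonist, had log2 fold changes of 0.82 ± 0.26 and 0.60 ± 0.19. Without hyperoxia replicate 3 the values were 0.40 for Tnfaip2 and 0.31 for Il1rn. The median was then 0.27, with 18 of 23 higher and 3 at an unadjusted p under 0.05. In that setting 128 of 10455 genes tested were higher at that p.

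**Figure D4:**
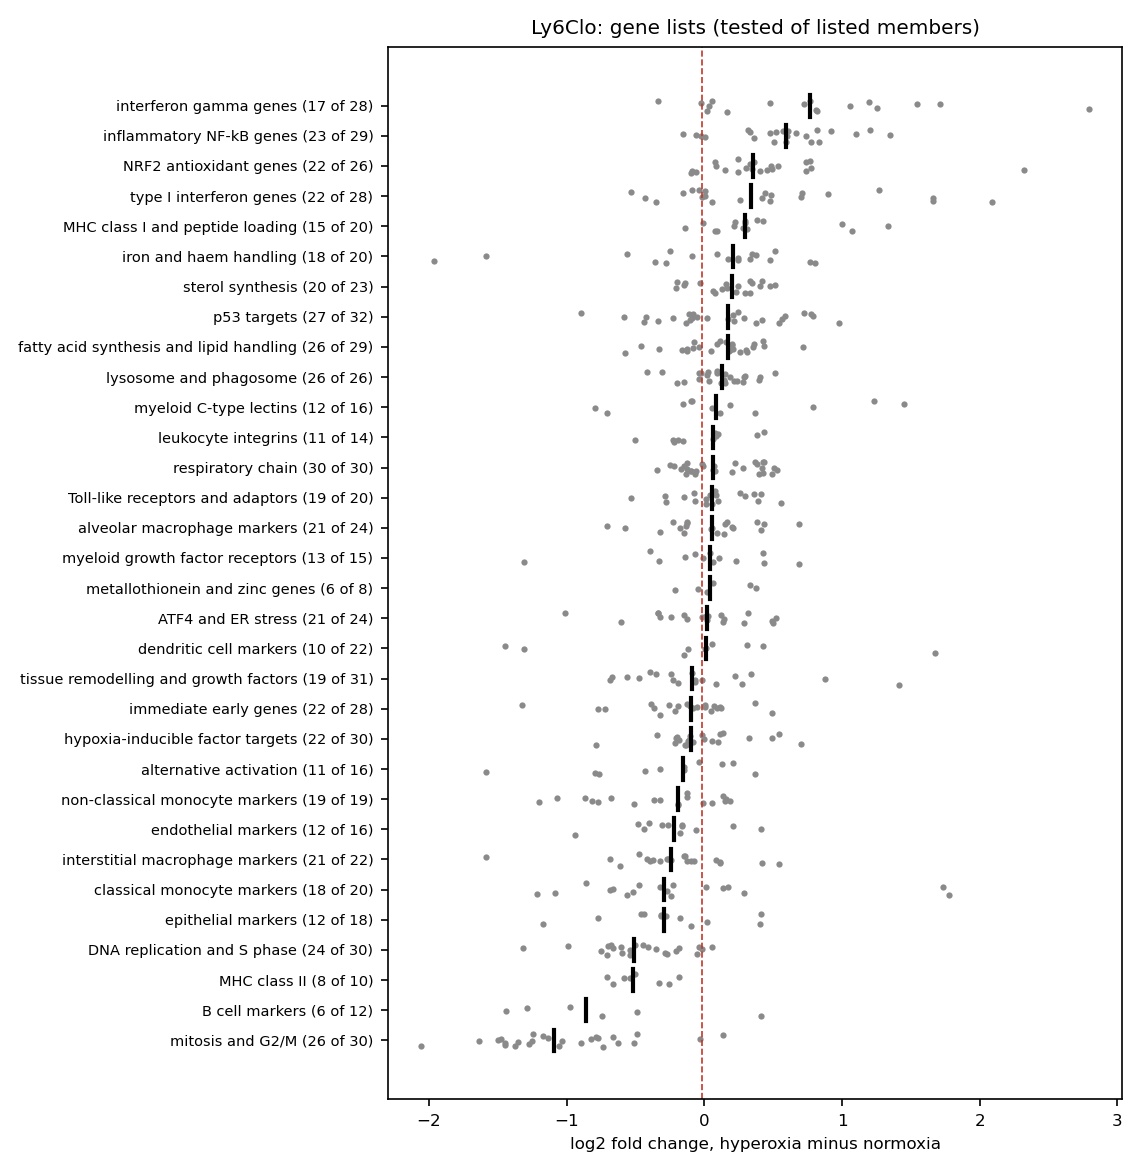
Log2 fold changes (x axis) of the tested members of each list with at least 6 of them, as grey points, with black bars at the list medians and a dashed line at the median of all genes tested, -0.01. The medians run from -1.09 for mitosis genes to 0.77 for interferon gamma genes, and numbers beside the names are tested of listed members.

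Monocyte identity genes had no call. Of 19 listed non-classical monocyte markers all were tested, 14 of them lower (52.1% of all genes were), and the median was -0.19. Of the lower members 4 had an unadjusted p under 0.05, against 2.34% of all genes. Their summed level was 3651, 3716, 5282, 5334 and 4182 CPM in normoxia and 4040, 4377, 4362, 3760 and 3042 CPM in hyperoxia. The groups overlapped, and in litter 93 both hyperoxic sums lay above both normoxic ones. Nr4a1, the nuclear receptor on which Ly6Clo monocytes depend, read 86.4, 113, 100, 102 and 37.4 CPM in normoxia and 110, 57.9, 27.1, 24.4 and 17.5 CPM in hyperoxia (log2 fold change -0.78 ± 0.29, and -0.45 without hyperoxia replicate 3). It also belongs to the immediate early genes, which tissue digestion can induce. Ace, the angiotensin-converting enzyme, had 61.6 ± 34.7 and 26.4 ± 14.3 CPM, and Spn, the surface sialoglycoprotein CD43, 53.3 ± 45.7 and 18.6 ± 17.6 CPM. Cx3cr1, the fractalkine receptor, had 260 ± 64.9 and 201 ± 116 CPM, with hyperoxia replicate 5 alone at 25.2 CPM.

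Among 20 classical monocyte markers 18 were tested, 12 of them lower (52.1% of all genes were) and 6 higher, with a median of -0.29. At an unadjusted p under 0.05, 3 were lower, against 2.34% of all genes, and 1 was higher, against 2.96%. Their sums were higher in hyperoxia in litters 93 and 100, at 4890 to 6241 CPM against 4543 to 5705 CPM, and lower in litter 108, at 3812 and 3249 CPM against 5491 CPM. Ly6c2 read 25.9, 20.7, 23.8, 13.1 and 12.2 CPM in normoxia and 3.23, 11.6, 10.2, 6.48 and 12.04 CPM in hyperoxia. These groups did not overlap (log2 fold change -1.08 ± 0.44), whereas Vcan of the same list was higher without overlap. Ifitm6, an interferon-induced transmembrane gene of monocytes, had 119 ± 78.7 and 39.1 ± 32.5 CPM. Ccr2, the chemokine receptor of classical monocytes, had 817 ± 165 and 678 ± 312 CPM, with hyperoxia replicate 5 the lowest at 224 CPM. Of 22 interstitial macrophage markers 21 were tested, 16 of them lower (52.1% of all genes were), 0 with an unadjusted p under 0.05, and the median was -0.24. Their sums were highest in the normoxic libraries of litter 93, 6806 and 6998 CPM, and lowest in hyperoxia replicate 5, 2591 CPM.

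Itgax, the gene of the sort marker, read 157, 155, 197, 160 and 182 CPM in normoxia and 183, 198, 306, 223 and 228 CPM in hyperoxia. Its log2 fold change was 0.43 ± 0.15, with an unadjusted edgeR p of 0.0124. The 21 tested alveolar macrophage markers had a median of 0.05, with 12 higher and 9 lower, and Siglecf had a log2 fold change of -0.71 ± 0.46 (-0.41 without hyperoxia replicate 3).

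In alveolar macrophages, edgeR called 11 genes at an adjusted p under 0.05, all higher in hyperoxia. Normoxic controls are separate libraries in each population, though libraries of different populations may come from the same pups. Read in Ly6Clo cells, all 11 had a log2 fold change above 0, against 47.9% of all genes tested, and 9 had an unadjusted p under 0.05, against 2.96%. The groups did not overlap for 4 of them, against 0.294%, and 9 had the same sign in all 3 litters, against 9.91%. None was called in Ly6Clo cells. Their median log2 fold change was 0.77 in Ly6Clo cells and 1.37 in alveolar macrophages. Without hyperoxia replicate 3, all 11 stayed above 0 and the Ly6Clo median was 0.54.

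Besides Rnf128, Cdkn1a, Zmat3, Esd and Blvrb, these genes included Creg1, a glycoprotein of the lysosome, with 519 ± 65.7 CPM in normoxia and 740 ± 121 in hyperoxia. Creg1 did not overlap between groups (log2 fold change 0.48 ± 0.15). Clec4d, a C-type lectin that binds fungal and mycobacterial glycolipids, read 80.2, 118, 103, 92.5 and 61.7 CPM in normoxia and 131, 86.0, 428, 116 and 360 CPM in hyperoxia. Hyperoxia replicates 3 and 5 stood apart from the other libraries, and its log2 fold change was 1.24 ± 0.44 (0.79 without hyperoxia replicate 3) against 1.97 ± 0.21 in alveolar macrophages. Ccng1, a p53-induced cyclin, and Dst, a cytoskeletal linker, had log2 fold changes of 0.42 ± 0.19 and 1.12 ± 0.35, and without hyperoxia replicate 3 that of Dst was 0.50.

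Slc11a1, a metal transporter of the phagosome, and Itgam, the integrin chain CD11b, were the least alike between the populations. Slc11a1 had a log2 fold change of 0.52 ± 0.42 in Ly6Clo cells and 2.82 ± 0.46 in alveolar macrophages, a difference of -2.45 with an edgeR adjusted p of 0.1096. Itgam had 0.08 ± 0.35 (0.0099 without hyperoxia replicate 3) and 1.70 ± 0.28, a difference of -1.74 with an adjusted p of 0.101. Neither difference passed the threshold.

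**Figure D5:**
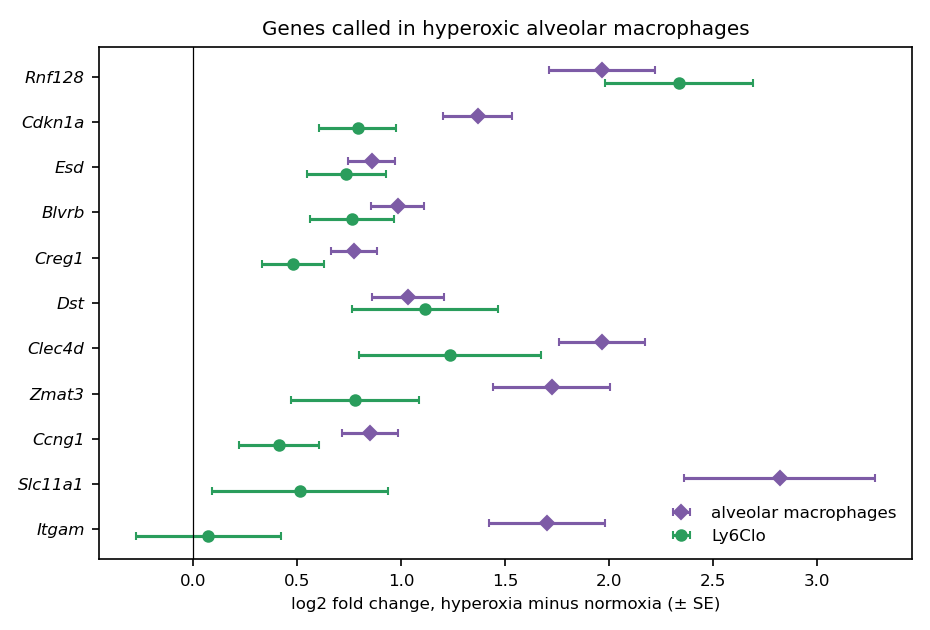
Log2 fold change of hyperoxia over normoxia with its standard error (x axis) for the 11 genes called in alveolar macrophages, in alveolar macrophages (diamonds) and in Ly6Clo cells (circles). Every Ly6Clo value lies above 0, and Slc11a1 and Itgam lie farthest from their alveolar macrophage values.

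Whether the hyperoxia effect in Ly6Clo cells differed from the mean effect in the other 3 populations was tested in 1 fit of all 43 libraries. Of 12529 genes, 0 differed at an adjusted p under 0.05 (0.00% higher and 0.00% lower), and 171 (1.36%) were higher and 306 (2.44%) lower in Ly6Clo cells at an unadjusted p under 0.05. The smallest p belonged to Gpr18 (difference -2.56 ± 0.49 on the log2 scale) and Susd3, a sushi domain gene (-1.70 ± 0.34), both with an adjusted p of 0.0622. In the fits of Ly6Clo, Ly6Chi and dendritic cells Gpr18 had log2 fold changes of -1.50, 0.29 and 0.31, and Susd3 of -1.11 (-0.70 without hyperoxia replicate 3), -0.0026 and 0.14. Neither gene passed the count filter in the fit of alveolar macrophages, so both differences include a population in which the gene was too low to be tested. Susd3 read 112, 108, 187, 176 and 42.6 CPM in normoxic Ly6Clo libraries and 50.02, 61.2, 32.1, 49.3 and 24.6 CPM in hyperoxic ones. Normoxia replicate 5 was the 1 normoxic library within the hyperoxic range.

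Both genes passed the threshold with another scaling (relative log expression in place of TMM), without the litter term, and without libraries under 1000000 counts. They also passed when either hyperoxia replicate 2 or normoxia replicate 5 was left out, and Gpr18 alone when normoxia replicate 2 was. Lair1, an inhibitory receptor for collagen, had a difference of -1.02 ± 0.25. Bcl11a and Serpinb10, which were too low for the fit within Ly6Clo cells, read 6.08 to 23.3 and 4.35 to 43.7 CPM in normoxic Ly6Clo libraries and 0.547 to 8.87 and 0.547 to 4.84 CPM in hyperoxic ones. Timd4, a phosphatidylserine receptor of resident macrophages, read 17.3, 171, 0, 0 and 6.08 CPM in normoxia and was at 0 in 4 of 5 hyperoxic libraries, with 1.61 CPM in replicate 1. Its height rested on normoxia replicate 2.

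In the direction of a higher effect in Ly6Clo cells, Ano10 had a difference of 1.29 ± 0.38, Depdc7 of 1.48 ± 0.39, Tmem115, a Golgi membrane protein, of 0.87 ± 0.25, Timm44, of the mitochondrial protein import motor, of 0.62 ± 0.18 and Gm17344 of 1.14 ± 0.37. The edgeR adjusted p was at least 0.466 for all 5. Sod3, an extracellular superoxide dismutase, ranked among them through 1 library: it was at 0 in 9 Ly6Clo libraries and at 7.97 CPM in hyperoxia replicate 4. Against Ly6Chi cells alone, 1 gene passed the threshold: Dusp2, a nuclear phosphatase of MAP kinases, with a difference of -2.28. Dusp2 read 23.5, 32.5, 29.8, 43 and 7.82 CPM in normoxic Ly6Clo libraries and 8.07, 12.4, 10.2, 5.48 and 4.92 CPM in hyperoxic ones.

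By list, the difference was lower in Ly6Clo cells at an unadjusted p under 0.05 for 7 of 30 mitosis genes, 7 of 19 non-classical monocyte markers, 7 of 22 interstitial macrophage markers and 3 of 10 MHC class II genes. The same held for 3 of 10 B cell markers and for 5 of 20 classical monocyte markers, of which 2 others were higher. The background was 2.44% for the lower and 1.36% for the higher direction. The median log2 fold change of the mitosis list was -1.09 in Ly6Clo cells, -0.98 in alveolar macrophages, 0.16 in Ly6Chi cells and 0.27 in dendritic cells. That of MHC class II was -0.52, 0.16, 0.75 and 0.05 in the same order. For the NRF2 list, 0 of 25 members differed at that p in either direction, with medians of 0.35, 0.54, 0.06 and 0.25.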

How the data were processed

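The 10 Ly6Clo libraries and, for comparison, the other 33 of 43 were taken from 1 table of whole-number counts per Ensembl gene, as the authors deposited it, without normalization. Per the labels' protocols, cDNA came from the SMART-Seq v4 kit and libraries from Nextera XT, without molecular identifiers or strand marking. The submitters' processing notes name mouse build NCBIM37 and the tools HTSeq 0.4.1, TopHat, SAMtools, Picard and FastQC. Their roles and the annotation are not given in the sources used here. Of 37991 genes, 32919 were matched to a symbol in GENCODE M21 (GRCm38, used for names and exonic lengths only), and genes without one hold 0.851% of Ly6Clo counts. Counts look limited for abundant transcripts: the highest in a Ly6Clo library is 3522, so differences of abundant genes may be compressed. Where genes overlap, their reads cannot be told apart.

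Genes were kept by edgeR 4.0.16 filterByExpr (minimum count 10, minimum total 15; 10188 genes) in R 4.3.3, scaled by TMM and fitted with litter and oxygen by robust quasi-likelihood. P-values were adjusted over all genes tested by the method of Benjamini and Hochberg, with calls under 0.05. Fold changes used a prior count of 0.125 and log2 CPM a prior count of 1. The difference between populations was a contrast in 1 fit of all 43 libraries (12529 genes). Alternatives used DESeq2 1.42.0, limma 3.58.1 voom, other scalings, filters and terms, and left out each library and litter. The reading of the alveolar macrophage genes in Ly6Clo cells and the list counts without each library were chosen after seeing the data. The procedure was tested on simulated data. Figures were drawn with matplotlib 3.10.9.

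Genes were named by rule: 8 in each direction by smallest p, where fewer than 12 were called, 3 or 4 per list by smallest p, 6 per direction for the difference between populations, and fixed sort and receptor genes. Some genes the rule names are not reported here. Members and the 37 gene lists were chosen with earlier results of these data known. Promoters are the 250 bases before the first RefSeq start of a gene, build GRCm38.p6.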

Additional observations from a re-analysis of the deposited data

Results flagged for a closer look

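In 45 of 360 groups of 5 Ly6Clo libraries checked, over 141 genes, 37 lists, total counts and genes detected, the highest or lowest library stood apart from the rest by Dixon's test, which chance does in about 1 of 20 groups. Hyperoxia replicate 3, the shallowest Ly6Clo library, was the library apart in 20 of these groups. It was high for Vcan (38.9 CPM), Ptafr (257), Mt1 (853), Ifit2 (164), Ifit1 (105), Hk2 (448), Mif (132), Cox5b (174), Ndufa2 (714), Uqcrh (508) and Cox7a2 (660 CPM). It was also high for Ly96 (249), Notch2 (125), Ifi205 (178), Spn (49.1) and S100a8 (660 CPM), and low for Myc (13.5 CPM). Its summed levels stood apart for metallothionein and zinc genes (1196 CPM), type I interferon genes (3564) and erythroid markers (491 CPM, next library 9.92). The part of its low depth and of its erythroid RNA in these values was not tested.

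The other hyperoxic libraries stood apart in 9 groups. Replicate 5 was high for Rnf128 (129 CPM), Narf (42.1), Cd24a (445) and Tmem115 (60.7). Replicate 4 was high for Sparc (274 CPM), Sod3 (7.97) and the summed mesenchymal markers (517). Replicate 1 was high for Hmmr (15.3 CPM) and Timd4 (1.61).

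Among normoxic libraries, replicate 3 was high for Klhl21 (23.8 CPM), Cox5b (77.4), Uqcrh (234), Ly96 (182), Notch2 (75.7), the summed metallothionein and zinc genes (667) and the summed erythroid markers (313). This is the other library with erythroid RNA, and 6 of these 7 genes and sums also stood apart in hyperoxia replicate 3 of the same litter. Replicate 2 was high for Timd4 (171 CPM), Serpinb10 (43.7) and the summed T and NK cell markers (1308, next library 245). Replicate 5 was high for Tmem115 (33.9 CPM) and for the summed NRF2 genes (6505), respiratory chain genes (10036) and alveolar macrophage markers (8621). Replicate 1 was high for Slc7a5 (43.2 CPM) and replicate 4 for Acta2 (96.2).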

How the results depend on the processing

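The 0 calls in each direction stood with limma voom, relative log expression or library totals as scaling, a stricter filter (6396 genes), no litter term, without each litter, and with genes detected or Y-linked expression as a covariate. DESeq2 called 1 gene higher. Without the filter on low counts edgeR called 98 higher and 75 lower. In 1 fit of all 43 libraries edgeR called 1 higher (Rnf128) and 2 lower (Susd3 and Dusp2). Leaving out 1 library at a time gave 0 to 1 calls higher and 0 lower. Genes at an unadjusted p under 0.05 numbered 311 without hyperoxia replicate 3 and 214 with genes detected as a covariate, against 540. For the difference between populations, no filter gave 49 higher and 119 lower, relative log expression and no litter term gave 2 lower each, and leaving out libraries under 1000000 counts gave 3 lower. Leaving out 1 library gave 0 to 2 lower and 0 higher.

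The median of interferon gamma genes was 0.10 without hyperoxia replicate 3, which is also the setting without libraries under 1000000 counts, 0.11 without litter 100, and 0.10 to 0.97 over the libraries left out singly. That of metallothionein and zinc genes was 0.40 without litter 93. No paired analysis was possible because the labels carry no replicate numbers. Litter was the block instead.

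Single genes changed sign under an alternative 41 times, over 14 genes. Over the libraries left out singly, the log2 fold change ran from -0.080 to 0.65 for Mt1, -0.71 to 0.22 for Slc39a14, -0.032 to 0.75 for Cox7a2, -0.020 to 2.43 for Ifi205, -0.041 to 0.84 for S100a8, -1.30 to 0.017 for Emcn and -0.11 to 1.07 for Tagln. It ran from -1.49 to 0.14 for Acta2, -0.94 to 0.090 for Sparc, -0.22 to 1.30 for Ppbp, -0.094 to 0.26 for Cd14, -0.031 to 0.10 for Ifngr2 and -0.47 to 0.22 for Ccr2. The ends across 0 came without hyperoxia replicate 3 for Mt1, Cox7a2, Ifi205, S100a8, Emcn, Acta2 and Sparc, and the setting without libraries under 1000000 counts, which leaves out the same Ly6Clo library, gave the same values. Without litter 100 the value was -0.069 for Mt1, -0.021 for Cox7a2, -0.030 for S100a8, 0.0039 for Napsa, 0.028 for Emcn, 0.15 for Acta2 and 0.10 for Sparc. Without litter 93 it was 0.80 for Slc39a14, -0.22 for Cd14 and -0.085 for Ifngr2, and without litter 108 it was -0.098 for Tagln, -0.20 for Ppbp and 0.22 for Ccr2. With genes detected as a covariate it was 0.027 for Sparc and -0.027 for Ifngr2, which was at -0.00738 with library totals. The causes were not tested. With 5 libraries a group, the counts of low genes limit what could be detected.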

Other observations

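Other programmes of Ly6Clo cells differed little between hyperoxia and normoxia. Of 30 respiratory chain genes all were tested, 16 higher and 14 lower, with a median log2 fold change of 0.07. Small subunits such as Ndufa2 (0.51 ± 0.25), Cox5b (0.52 ± 0.25) and Uqcrh (0.42 ± 0.22) were highest in hyperoxia replicate 3, and without it stood at 0.016, 0.13 and 0.013. Hypoxia-inducible factor targets had 8 of 22 higher and a median of -0.10. Hk2, a hexokinase of glycolysis, was at 448 CPM in hyperoxia replicate 3 and between 75.6 and 138 CPM in the other 9 libraries. Metallothionein and zinc genes had 4 of 6 higher and a median of 0.04.

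None of the lipid genes was called: 15 of 20 sterol synthesis genes and 17 of 26 genes of fatty acid synthesis and lipid handling were higher, against 47.9% of all genes. The medians were 0.20 and 0.17. In each list 2 higher members had an unadjusted p under 0.05, against 2.96% of all genes. Cyp51, a demethylase of cholesterol synthesis, had 79.0 ± 15.3 CPM in normoxia and 119 ± 36.1 in hyperoxia. Lpl, the lipoprotein lipase, had 695 ± 100 and 924 ± 190 CPM. Of 26 lysosome and phagosome genes 19 were higher, with a median of 0.13. Cybb, the catalytic subunit of the phagocyte oxidase, had a log2 fold change of 0.40 ± 0.17, and 0.24 without hyperoxia replicate 3.

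Iron and haem handling had 11 of 18 tested members higher and a median of 0.21, and included Spic, a transcription factor of iron-recycling macrophages, at 23.3 ± 21.4 CPM in normoxia and 4.33 ± 4.71 in hyperoxia. Toll-like receptors and adaptors had 13 of 19 higher (median 0.06), leukocyte integrins 6 of 11 (0.07), C-type lectins 7 of 12 (0.08), myeloid growth factor receptors 7 of 13 (0.04) and ATF4 and ER stress genes 12 of 21 (0.02). Immediate early genes had 9 of 22 higher (-0.09), tissue remodelling genes 6 of 19 (-0.09) and alternative activation genes 3 of 11 (-0.15). Mmp14, a membrane metalloproteinase, reached 171 and 142 CPM in hyperoxia replicates 3 and 5 and at most 34.0 CPM in the other 8 libraries.

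Markers of other cell types were present at varying levels. Dendritic cell markers had 6 of 10 tested members higher (median 0.01), epithelial markers 3 of 12 (-0.29), endothelial markers 2 of 12 (-0.22), neutrophil markers 1 of 4 (-0.41) and mesenchymal markers 1 of 4 (-0.31). Of 17 platelet, mast cell, basophil and eosinophil markers 4 were tested, all of them higher (0.63). Pf4, which is also on the interstitial macrophage list, had a log2 fold change of 0.55 ± 0.43 (0.040 without hyperoxia replicate 3). That of Ppbp was 0.66 ± 0.80, and -0.22 without normoxia replicate 5. The 1 tested T and NK cell marker, Il7r, had a log2 fold change of 1.56 ± 0.80 (0.62 without hyperoxia replicate 3). None of 12 erythroid markers passed the filter, and Hbb-y and Slc4a1 were among those at 0 in all Ly6Clo libraries. Summed epithelial markers ran from 1105 to 2603 CPM in normoxia and from 466 to 2717 CPM in hyperoxia.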
